A study of Mus musculus with 6 samples.

Results

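Deoxyribonucleases are enzymes that cut DNA, and the genes described here are Dnase1, its relatives Dnase1l1, Dnase1l2 and Dnase1l3, and the lysosomal enzyme gene Dnase2a. The genes were selected on their symbols, and their probe sets were to be chosen by level: a gene was included when GEO's platform annotation gave a probe set exactly 1 gene symbol and that symbol was one of these 5, and the probe set of highest mean over the 6 arrays was to stand for a gene with several. Of the 5 genes, 4 had such a probe set, out of 22180 genes with 1 symbol in the deposited table. Each of the 4 had 1 probe set, so no measured value decided which one was used. Both of the 2 probe sets annotated to Dnase2a also carry another gene's symbol, and Dnase2a was therefore not analysed here. The fall of Dnase1 was already known from these data when the genes were brought together, so its place among them is a description and not independent evidence.

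Whole kidney RNA was measured on 6 single-colour Affymetrix whole-transcript arrays, 3 from mice labelled Cre-positive and 3 from mice labelled Cre-negative, all sacrificed at 4 weeks with no special treatment. All 6 come from a cross of a conditional Pals1/Mpp5 knockout line, in a background the labels spell C56Bl/6, with Six2-Cre transgenic mice on a mixed background. How many conditional alleles either group carries is not given in the labels, while the series title speaks of haplo-insufficiency. Six2-Cre acts in the progenitors that form podocytes and nephron tubules but spares the collecting duct, so the arrays also hold cells with an intact Mpp5 gene. Mpp5 encodes Pals1, a scaffold of the apical polarity complex of epithelial cells. Values are log2 after RMA, and each difference is Cre-positive minus Cre-negative ± SE from a limma fit across all 22180 genes, with n = 3 per group. Adjusted p-values are Benjamini-Hochberg values over the 22180 genes, and "rose" and "fell" are used for an adjusted p under 0.05. Nothing in the labels says that each array is a separate mouse, and the p-values therefore reflect variation among 6 arrays that can be technical in part.

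DNase I, the product of Dnase1, is a secreted endonuclease that needs calcium and magnesium, digests naked double-stranded DNA outside cells, and is blocked by binding to monomeric actin. The kidney tubule is one of its main sites of synthesis in the mouse, the enzyme reaches the urine, and mice without it can develop a lupus-like disease of the glomeruli. The relatives share its fold but are known mainly from other cells and tissues. DNASE1L3 is secreted by macrophages and dendritic cells and cuts DNA wrapped in nucleosomes. DNASE1L2 acts in the differentiating epidermis, and DNASE1L1 is best known from muscle.

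The arrays carried kidney transcripts, with Umod, the kidney-specific gene of uromodulin, at 12.48 to 12.69 in Cre-positive and 12.85 to 12.88 in Cre-negative arrays. They also differed in Mpp5, in sex-linked transcripts and in transcripts of other tissues. Mpp5 stood at 8.04, 8.06 and 8.20 in Cre-positive arrays, against 8.66, 8.69 and 8.78 in Cre-negative arrays, a difference of -0.61 ± 0.09 (limma adjusted p = 0.00232). Six2 was at 4.11 to 4.55 in Cre-positive and 4.25 to 4.44 in Cre-negative arrays, and differed by -0.04 ± 0.12. These levels are about those of sex-linked transcripts in arrays of the other sex (3.66 to 4.54), so a change in Six2 could be missed. Xist, the RNA of the silenced X chromosome, was at 4.00 to 4.29 in all 3 Cre-positive arrays and at 4.16 in Cre-negative replicate 3, while Cre-negative replicates 1 and 2 read 10.76 and 10.70, and Kdm5d, Uty and Eif2s3y, all on the Y chromosome, ran the other way. The Cre-positive arrays and 1 Cre-negative array thus carried male transcripts, and 2 Cre-negative arrays female ones. All 5 adrenal cortex markers were high in Cre-negative replicate 2, where their mean was 10.30, and all 5 skeletal muscle markers were highest in Cre-positive replicate 2, where their mean was 7.33. For each member and list, the calls that held with Xist as a second factor (the sex term) are given where they differ. So are those made without the 2 arrays numbered 2. Neither is given for Mpp5, Hnf4a and Trap1 singly. All 3 Cre-positive arrays lacked Xist, so the sex term sets them against Cre-negative replicate 3 alone. A call held or lost with this term therefore rests on that 1 Cre-negative array.

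Dnase1 was the member that fell, to 3.02% of its Cre-negative level, while Dnase1l1 rose slightly in Cre-positive kidneys and neither Dnase1l2 nor Dnase1l3 passed the test. The test thus called 1 of the 4 measured members lower, 1 higher and the other 2 not. Over all 22180 genes, 21.8% were called in either direction, 11.1% lower and 10.7% higher. Cre-positive and Cre-negative values were fully separated for 2 of the 4, Dnase1 and Dnase1l1, and for 38.5% of all genes. The median difference of the 4 genes was -0.05, beside -0.01 over all genes.

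**Figure D1:**
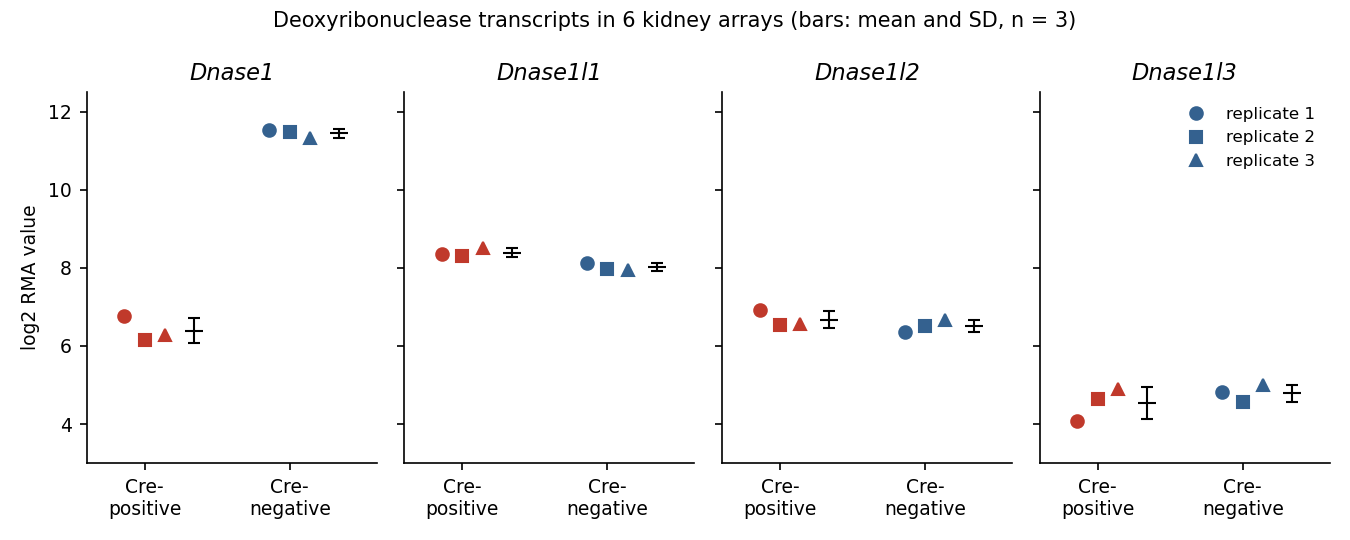
Log2 RMA values (vertical axis) of the 4 measured deoxyribonuclease genes in each Cre-positive (red) and Cre-negative (blue) array, with 1 symbol per replicate and the mean and SD of each group (n = 3) in black. Dnase1 lies at 6.16 to 6.75 in Cre-positive arrays and at 11.32 to 11.53 in Cre-negative arrays, while Dnase1l1 is separated by a narrow gap and the groups of Dnase1l2 and Dnase1l3 overlap.

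Dnase1 (probe set 17322507, Entrez gene 13419, chromosome 16) had values of 6.75, 6.16 and 6.27 in Cre-positive replicates 1, 2 and 3, against 11.53, 11.48 and 11.32 in Cre-negative replicates 1, 2 and 3. The 3 Cre-positive arrays were all far below the 3 Cre-negative ones, with a gap of 4.56 between the nearest arrays of the groups. The group means were 6.39 ± 0.32 in Cre-positive and 11.44 ± 0.11 in Cre-negative arrays (SD, n = 3 each), which differ by -5.05 ± 0.16 (limma adjusted p = 1.63e-05). Put back on a linear scale, Cre-positive kidneys held 3.02% of the Dnase1 signal of Cre-negative kidneys (95% interval 2.34% to 3.89%), a 33.1-fold lower level (25.7 to 42.7). Only 2 of the 22180 genes had a larger fall. The exact two-sided permutation test on the 6 values gave p = 0.10, the smallest that 3 against 3 arrays allow. Dnase1 remained above the level at which transcripts of the other sex were read, since Xist in arrays without it and the 3 Y-linked genes in the 2 arrays with Xist stood at 3.66 to 4.54. RMA compresses differences towards the lower end of its scale.

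The fall was nearly as large in the fit with the sex term and in the fit without the 2 arrays numbered 2. Cre-negative replicate 3, the array without Xist, read 11.32 for Dnase1, close to the 11.53 and 11.48 of the arrays with Xist. With the sex term, against Cre-negative replicate 3 alone, the difference was -4.92. It was -4.91 ± 0.19 without the replicates numbered 2 of both groups (limma adjusted p = 0.00126). In bulk tissue such as this, fewer cells of a type and less RNA per cell cannot be told apart, and this holds for every difference given here.

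The bases just upstream of Dnase1 are shown because the gene has the largest change of the family. They come from RefSeq's mouse build GRCm38.p6, plus strand, chr16:4036786-4036957, and end 1 base before the first annotated base of the gene. Capitals mark matches to 2 motifs, which were chosen after this stretch had been read.
Dnase1 upstream: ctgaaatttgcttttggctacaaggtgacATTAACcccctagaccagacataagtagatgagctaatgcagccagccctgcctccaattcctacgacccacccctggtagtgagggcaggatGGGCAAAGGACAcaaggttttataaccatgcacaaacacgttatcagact
The first capitals, ATTAAC, are the reverse complement of GTTAAT, a half-site of the hepatocyte nuclear factor HNF1. The second, GGGCAAAGGACA, match the direct repeat read by HNF4, searched as 2 copies of GGNCA with AA between them, and end 38 bases before the first annotated base of the gene. Measured to the start sites of the 2 Dnase1 promoter windows in RefSeq's table, this match begins at -128 and at -237. Both motifs were searched on both strands, and these 2 matches do not overlap. The HNF4 motif occurred in 0.204% of 32851 promoter windows of 300 bases and the HNF1 half-site in 7.1% of them. Of the 3 members with a window in RefSeq's table (Dnase1, Dnase1l1 and Dnase1l2), Dnase1 held the HNF4 motif, and Dnase1 and Dnase1l2 held the HNF1 half-site. A match is a description of letters and not of binding. Hnf4a, which encodes a transcription factor of proximal tubule cells and of the liver, was at 10.92, 10.62 and 11.01 in Cre-positive arrays, against 11.31, 11.27 and 11.24 in Cre-negative arrays. The groups did not overlap, and Hnf4a fell by 0.42 on the log2 scale (SE 0.11, limma adjusted p = 0.0322), beside the 5.05 of Dnase1. Whether this call held with the sex term or without the arrays numbered 2 is not given here. A part of Hnf4a in the fall of Dnase1 was not tested.

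The profile of Dnase1 across the 6 arrays was most like those of 4 genes known from the proximal tubule or the liver. Likeness was measured as the Euclidean distance over the 6 arrays after each gene's own mean was removed, and since the arrays fall into 2 groups it mostly ranks the size of the group difference. The nearest gene was Slc22a19, an organic anion transporter, at a distance of 1.02. It read 5.64, 6.32 and 5.35 in Cre-positive arrays, against 10.97, 11.23 and 10.78 in Cre-negative arrays. Mep1b, a metalloprotease subunit of the brush border, followed at 1.37, then the organic anion transporter Slc22a22 at 1.50 and Serpina1d, one of the alpha-1-antitrypsin genes, at 1.75. Mep1b read 5.80, 6.23 and 5.98 in Cre-positive arrays, against 10.02, 10.11 and 10.42 in Cre-negative arrays. Serpina1d and the Slc22a genes have close paralogs whose transcripts their probe sets may also detect. Of these 4 genes, 3 had a promoter window, 0 of the 3 held the HNF4 motif, and Serpina1d held the HNF1 half-site. Of 10 proximal tubule markers with a window, 0 held the HNF4 motif and 6 held the HNF1 half-site, Slc34a1, Slc22a6, Slc22a8, Hnf4a, Miox and Pck1.

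**Figure D2:**
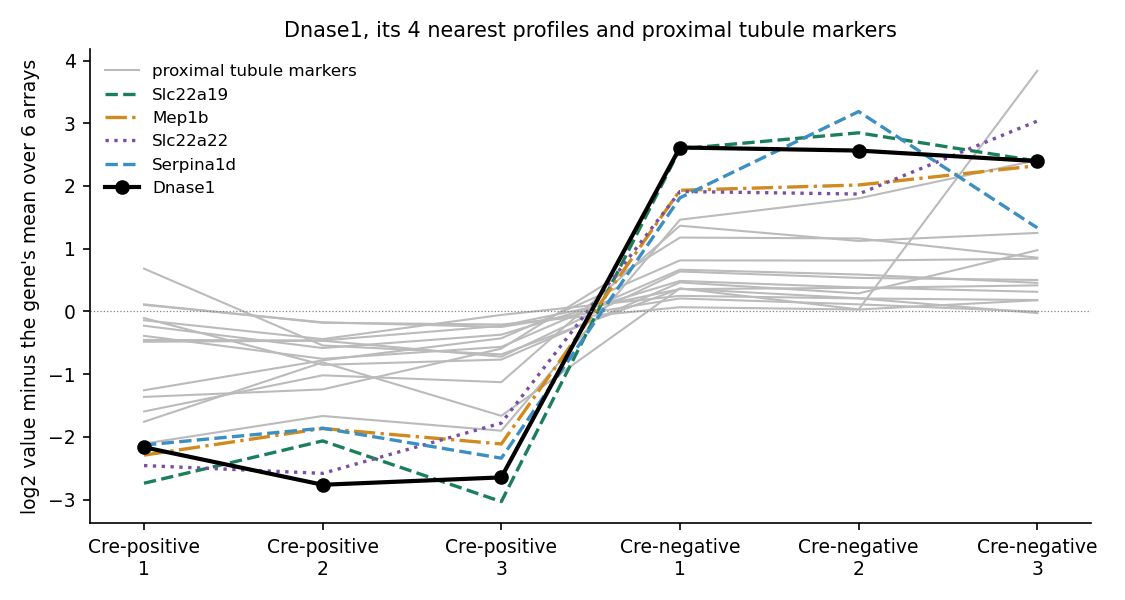
Log2 value minus the gene's mean over the 6 arrays (vertical axis) for Dnase1 (black), the 4 genes of nearest profile (coloured, dashed or dotted) and the 14 measured proximal tubule markers (grey), by array. Dnase1 and its 4 nearest genes differ between the groups by -5.22 to -4.18, and the proximal tubule markers by -3.78 to -0.18.

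Markers of the proximal tubule were lower in the same arrays. Of 14 measured markers 10 fell and 0 rose, with a median difference of -1.13 and a range of -3.78 to -0.18, so that Dnase1 lay below all of them. Their mean level was 10.18 to 10.25 in Cre-positive and 11.44 to 11.76 in Cre-negative arrays. The largest fall was that of the transporter Slc22a7 (-3.78 ± 0.23), followed among the called markers by the glucose transporter Slc5a2 (-2.49 ± 0.16) and the organic anion transporter Slc22a8 (-2.13 ± 0.20), and the receptor genes Lrp2 and Cubn differed by -1.11 ± 0.10 and -1.14 ± 0.12. With the sex term 9 of the 10 calls held, and without both arrays numbered 2 there were 8 falls. Thick ascending limb markers also differed, with 5 of 8 lower, 1 higher and a median of -0.75, among them Egf (-3.31 ± 0.27) and Wfdc15b (-2.44 ± 0.16), and 4 of the 6 calls held with the sex term, as many as fell without both arrays numbered 2. Of 6 distal convoluted and connecting tubule markers 5 fell and 1 rose, but 1 of these 6 calls held with the sex term, and 3 fell and 1 rose without both arrays numbered 2. The collecting duct markers moved both ways, with 3 of 9 higher and 3 lower. Of these 6 calls 2 held with the sex term, and 2 fell and 0 rose without both arrays numbered 2. Of 5 podocyte markers 4 fell, with a median of -1.27, 3 of the calls held with the sex term, and 3 fell without both arrays numbered 2. Calls made up 71.4% of the proximal tubule, 75.0% of the thick ascending limb and 100% of the distal convoluted and connecting tubule markers. For collecting duct and podocyte markers the shares were 66.7% and 80.0%, beside 21.8% over all genes. The part of these cell types in the fall of Dnase1 was not tested.

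Trap1, the mitochondrial chaperone gene next to Dnase1, lies on the opposite strand, and the 2 genes overlap at their ends in GRCm38.p6. Trap1 was at 9.28, 9.45 and 9.26 in Cre-positive arrays, against 10.05, 9.99 and 10.07 in Cre-negative arrays. Its groups did not overlap, and it fell as well (-0.70 ± 0.09, limma adjusted p = 0.00140). Slx4, the neighbour on the other side and a scaffold of DNA repair nucleases, did not pass (0.14 ± 0.11, limma adjusted p = 0.428). The labels do not say whether the Dnase1 probe set reaches into the overlap.

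Dnase1l1 (probe set 17542642, Entrez gene 69537, X chromosome) was at 8.34, 8.31 and 8.51 in Cre-positive arrays, against 8.13, 7.98 and 7.95 in Cre-negative arrays. The groups did not overlap, but the gap between their nearest arrays was 0.17, smaller than the range of 0.20 within the Cre-positive and 0.18 within the Cre-negative arrays. The means were 8.39 ± 0.11 in Cre-positive and 8.02 ± 0.10 in Cre-negative arrays (SD, n = 3 each), which differ by 0.37 ± 0.10 (limma adjusted p = 0.0311). The Cre-positive level was 1.29-fold the Cre-negative one (95% interval 1.10 to 1.50). This call rested on the full set of arrays: leaving out any 1 array other than Cre-negative replicate 1 ended it, with limma adjusted p-values of 0.0509 to 0.103 over the other 5. It was also lost with median centring of the arrays (0.31, limma adjusted p = 0.0504) and with the replicate number as a block (0.37 ± 0.11, limma adjusted p = 0.0711).

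As an X-linked gene, Dnase1l1 was looked at beside the sex of the arrays. Cre-negative replicate 3, with male transcripts, had the lowest value of its group, 7.95, and the 2 Cre-negative arrays with female transcripts had 8.13 and 7.98. With the sex term, against Cre-negative replicate 3 alone, the difference was 0.43 and did not pass. Its neighbour Taz, which encodes tafazzin and overlaps Dnase1l1 at its start on the opposite strand in GRCm38.p6, differed by 0.06 ± 0.11, and Rpl10, on the other side, was not analysed here. The 4 genes of most similar profile were Filip1l, R3hdm4, Eef1b2, a translation elongation factor subunit, and Smtnl2, at distances of 0.08 to 0.10 over the 6 arrays. Distances this small are those of genes with little change, and the 17435 genes compared offer many such profiles.

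Dnase1l2 (probe set 17341843, Entrez gene 66705, chromosome 17) was at 6.93, 6.53 and 6.56 in Cre-positive arrays, against 6.36, 6.50 and 6.66 in Cre-negative arrays. The groups overlapped, with Cre-positive replicate 1 above all the others. The means were 6.67 ± 0.22 in Cre-positive and 6.51 ± 0.15 in Cre-negative arrays (SD, n = 3 each), and the difference of 0.17 ± 0.13 did not pass (limma adjusted p = 0.449). Its 95% interval, -0.14 to 0.48, allows a Cre-positive level between 0.906 and 1.39 times the Cre-negative one. Without Cre-positive replicate 1 the difference was 0.04, and with the sex term 0.02. The neighbours E4f1 (0.32 ± 0.17) and Eci1, an enzyme of fatty acid oxidation (-0.28 ± 0.16), did not pass either. The genes of nearest profile were Rnf169, at a distance of 0.08, Sgk1, a kinase induced by aldosterone, and Alg13, both at 0.10, and Apol6 at 0.11.

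Dnase1l3 (probe set 17303386, Entrez gene 13421, chromosome 14) was at 4.08, 4.63 and 4.89 in Cre-positive arrays, against 4.83, 4.56 and 4.99 in Cre-negative arrays. The groups overlapped, and Cre-positive replicate 1 was the lowest array. The means were 4.53 ± 0.42 in Cre-positive and 4.79 ± 0.22 in Cre-negative arrays (SD, n = 3 each), a difference of -0.26 ± 0.21 that did not pass (limma adjusted p = 0.452), with a 95% interval of -0.74 to 0.22. These levels reach down into the 3.66 to 4.54 at which transcripts of the other sex were read, so a change in Dnase1l3 would be understated here. Without Cre-positive replicate 1 the difference was -0.03, and with the sex term -0.46 ± 0.30. Its neighbour Abhd6, a lipid hydrolase gene, did not pass (-0.26 ± 0.14). The nearest profiles were those of Abhd10, Sp100, Bank1, a B cell adaptor, and Kif20a, a mitotic kinesin, at distances of 0.18 to 0.26.

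Among the cells known to secrete DNASE1L3, most macrophage markers rose and most dendritic cell markers did not pass. Of 11 macrophage markers 10 rose and 0 fell (90.9% called, beside 21.8% over all genes), with a median of 1.57. Among those that rose were Cd14 (2.56 ± 0.12), Cd68 (2.13 ± 0.21) and Mrc1 (2.01 ± 0.27). The mean of the macrophage markers was 8.25 to 9.33 in Cre-positive and 7.05 to 7.14 in Cre-negative arrays. With the sex term 5 of the 10 calls held, and 5 rose without both arrays numbered 2. Of 8 measured dendritic cell markers, 2 rose, Cd209a (0.53 ± 0.11) and Itgax (1.09 ± 0.25), and the others, among them Flt3 (0.33 ± 0.12) and Zbtb46 (-0.01 ± 0.08), did not pass. The 2 dendritic cell calls were 25.0% of the list, close to the 21.8% over all genes. Neither of them held with the sex term or without both arrays numbered 2. Of 8 endothelial markers 5 fell (62.5% called), with a median of -0.59, and 2 of these calls held with the sex term, as many as fell without both arrays numbered 2.

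**Figure D3:**
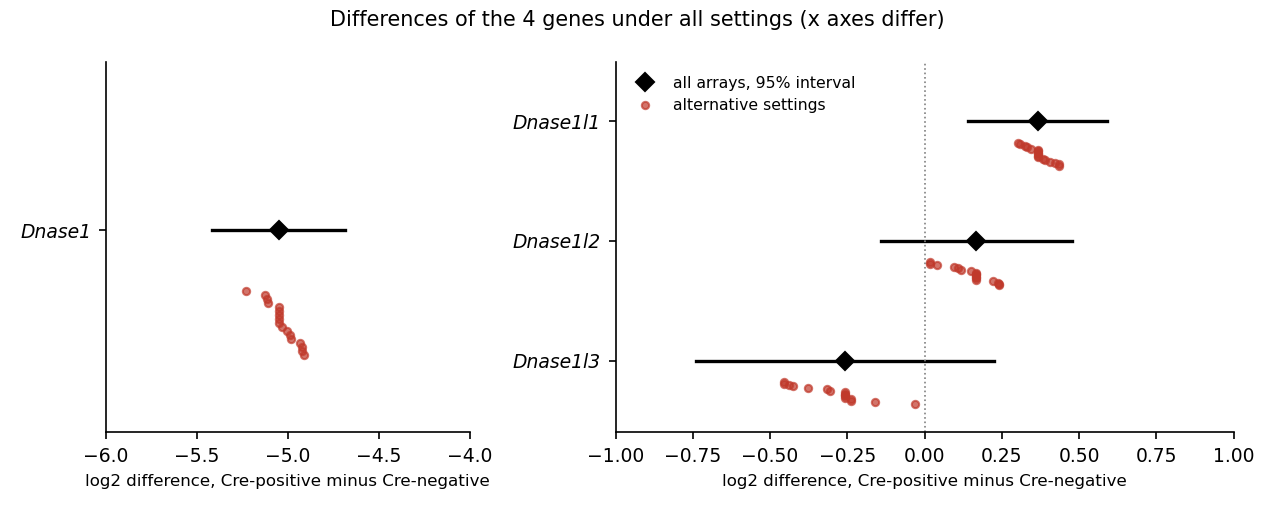
Log2 differences, Cre-positive minus Cre-negative, of the 4 deoxyribonuclease genes (black diamonds, with 95% intervals from limma) and under the alternative settings (red points), with separate horizontal scales for Dnase1 and for the other genes. Dnase1 lies between -5.23 and -4.91 throughout, and the intervals of Dnase1l2 and Dnase1l3 include 0.

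The differences of other nuclease genes ran from -0.37 to 1.76, beside the -5.05 of Dnase1. Of 22 measured genes for nucleases that cut DNA or RNA-DNA hybrids, 5 rose, 1 fell and 16 did not pass, or 27.3% called beside the 21.8% over all genes, with a median of 0.14. Pld4, a 5′ exonuclease of the lysosomes of myeloid cells, was at 8.24, 8.89 and 9.76 in Cre-positive arrays, against 7.13, 7.35 and 7.12 in Cre-negative arrays. Its groups did not overlap, and it had the largest rise of the list (1.76 ± 0.33, limma adjusted p = 0.00764). The other rises were small: Rnaseh1 (0.36 ± 0.09) and Rnaseh2a (0.30 ± 0.09), which remove RNA from hybrids with DNA, Endod1 (0.32 ± 0.10), and Samhd1, a dNTP hydrolase also described as a nuclease (0.34 ± 0.10). Endog, the mitochondrial endonuclease G, fell (-0.37 ± 0.11, limma adjusted p = 0.0410). Dnase2b, the relative of Dnase2a best known from the lens, was at 4.27, 4.51 and 4.20 in Cre-positive arrays, against 4.15, 4.20 and 4.44 in Cre-negative arrays, all within the 3.66 to 4.54 of transcripts of the other sex. None of the 6 calls of this list held with the sex term, and none was made without the replicates numbered 2 of both groups.

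DNA that nucleases leave behind can be read by receptors of innate immunity. Of 17 measured DNA sensing genes 6 rose, 0 fell and 11 did not pass, or 35.3% called beside the 21.8% over all genes, with a median of 0.27. Sting1, the adaptor downstream of the cytosolic DNA sensor cGAS, was at 8.08, 8.08 and 8.54 in Cre-positive arrays, against 6.31, 6.73 and 6.67 in Cre-negative arrays, and rose without overlap of the groups (1.66 ± 0.16, limma adjusted p = 0.000486). The others were Unc93b1, which carries Tlr9 to endosomes (0.96 ± 0.20), Irf7 (0.96 ± 0.15), Myd88 (0.76 ± 0.11), and the sensor genes Ifi204 (1.03 ± 0.27) and Aim2 (0.81 ± 0.21). Tlr9 itself did not pass (0.66 ± 0.24, limma adjusted p = 0.0944). With the sex term 3 of the 6 calls held, and 3 genes rose without both arrays numbered 2. Many of these genes are also expressed by macrophages, whose markers were higher in the same arrays, and the part of those cells was not tested.

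Genes for the uptake of dead cells, actin genes and lysosomal genes moved in both directions, with more rises than falls in each list. In the uptake list 10 of 18 rose and 1 fell (61.1% called, beside 21.8% over all genes), with a median of 0.56. With the sex term 6 of the 11 calls held, and 4 rose and 1 fell without both arrays numbered 2. Some genes that rose in this list are also among the macrophage markers, and the part of macrophages was not tested. Havcr1, the phosphatidylserine receptor of injured tubule cells, had the largest difference (4.88 ± 0.42), the scavenger receptor gene Stab1 (1.57 ± 0.11) and the receptor gene Lrp1 (1.17 ± 0.09) rose, and Stab2 fell (-0.64 ± 0.09). In the list of actin, the inhibitor of DNase I, and actin-binding proteins, 4 of 10 rose and 1 fell, 3 of the 5 calls held with the sex term, and 2 rose and 1 fell without both arrays numbered 2. Actb did not pass (0.30 ± 0.11, limma adjusted p = 0.0961), nor did the actin-severing gelsolin gene Gsn (0.23 ± 0.11), while its relatives Scin (0.79 ± 0.11) and Capg (1.24 ± 0.24) rose and the brush border protein gene Vil1 fell (-0.50 ± 0.09). Among 20 measured lysosomal genes 6 rose, such as the protease gene Ctsd (0.88 ± 0.08), 3 fell, such as the acid lipase gene Lipa (-0.71 ± 0.08), and the median was 0.16. These 9 calls were 45.0% of the list, 5 of them held with the sex term, and 3 rose and 1 fell without both arrays numbered 2.

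**Figure D4:**
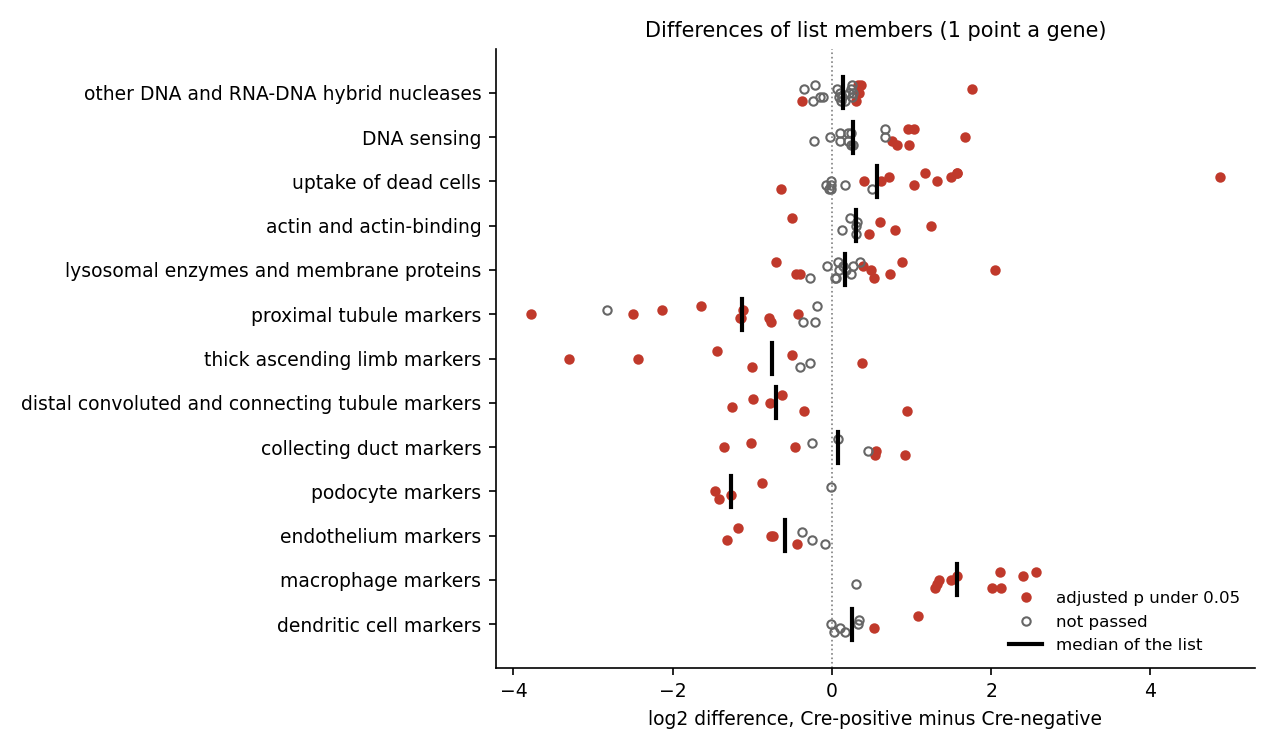
Log2 difference, Cre-positive minus Cre-negative (horizontal axis), of each measured gene of the lists, as filled red points at limma adjusted p under 0.05 and open grey points otherwise, with the median of each list as a black bar. Proximal tubule markers lie below 0 with a median of -1.13, macrophage markers above 0 with a median of 1.57, and the other nucleases close to 0 with a median of 0.14.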

How the data were processed

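The authors deposited 1 table of log2 values for 41345 probe sets on 6 arrays; RMA (background correction, quantile normalization, summary per probe set) and Partek are named, without versions, in the submitters' processing notes. RMA output is by convention log2, and the range of 1.89 to 13.6 fits this scale. The build behind the probe sets is not given in the sources used here; coordinates are printed only for the RefSeq sequence. 23521 rows had 1 gene symbol, giving 22180 genes; dim genes were kept.

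The comparison used lmFit and eBayes of limma 3.58.1 without covariates, run in R 4.3.3. In a simulation of the 22180 genes limma recovered 28% of 50 genes given a change of 0.5 and 98% of 50 given 1. It recovered 100% of those given 2 or 5 on the log2 scale, with 12 unchanged genes called. The simulation used independent normal errors and changed 50 genes per size, while 4844 genes were called in the data. Its recovery therefore does not measure how often the comparison here finds a change of a given size. Tables and figures were made with Python 3.11.15, pandas 2.3.3, scipy 1.17.1 and matplotlib 3.10.9. Scan dates were not used here, so no batch was tested, and the number of arrays limits the precision.

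The members and lists were chosen with earlier results of these data known. Genes named are the members, Mpp5, Six2 and sex-linked genes, the nearest protein-coding neighbours with a symbol other than a predicted one, the 4 nearest profiles of each member (predicted, Rik, small RNA and receptor-cluster loci left out) and the 6 list members of smallest p; Umod, Hnf4a, Tlr9, Actb, Gsn, Dnase2b, Flt3 and Zbtb46 were named after their values were seen where they fall outside that rule. List genes with no row of their own, such as Trex1, were not analysed here. Alternatives were scaling, a filter on dim genes, eBayes settings, array weights, the row per gene, thresholds, the replicate number as a block, a sex term, arrays left out and arrays without Xist alone.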

Additional observations from a re-analysis of the deposited data

How the results depend on the processing

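Dnase1 kept its fall in all 17 alternatives, between -5.23 and -4.91. Several alternatives could not move a member's estimate, which for Dnase1 stayed at -5.05. These were the filter on dim genes, the eBayes settings, the row per gene and the replicate number as a block. The sex term and the arrays without Xist alone gave the same estimate, -4.92 for Dnase1. With 1 array left out its limma adjusted p-values were 1.42e-05 to 0.000282. Dnase1l2 (0.02 to 0.24) and Dnase1l3 (-0.46 to -0.03, not tested among the brighter genes) kept their sign and did not pass in any alternative run. Dnase1l1 stayed higher in all 17 but lost its call in 10. The difference was 0.31 with median centring and 0.37 with the replicate block. With the sex term and with arrays without Xist alone it was 0.43, in both against Cre-negative replicate 3 alone. It was 0.38 without the replicates numbered 2 of both groups, and 0.30 to 0.42 with 1 array left out. Same-numbered arrays did not deviate together over all genes (correlations 0.03, -0.04 and -0.01). The sex of the arrays and transcripts of other tissues also enter these deviations, so pairing by litter or batch is not excluded.

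Over all genes 4844 were called, against 3141 without Cre-negative replicate 1 (3141 to 4885 with 1 array left out), 2030 with the sex term, 1101 with arrays without Xist alone, 1853 without both arrays numbered 2 and 2516 at adjusted p under 0.01. Of 87 genes in the 5 functional lists 37 were called, against 17, 8, 15 and 22 under the last 4 of these settings and 27 to 42 with 1 array left out. These settings have fewer arrays, 1 more coefficient or a stricter threshold, and other causes were not tested. With all arrays, no covariates and adjusted p under 0.05, the 37 calls were 42.5% of the lists, beside 21.8% over all genes. Shares under the other settings are not given here. Dnase2a gave no value under any setting. Signal near the lower end of the scale limits Six2, Dnase1l3 and Dnase2b.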

Other observations

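Ribonucleases were looked at after the data were examined. Of 13 measured genes of the pancreatic-type, angiogenin and other ribonuclease families and their inhibitor, Rnh1, the cytosolic ribonuclease inhibitor, was the one called (7.69%, beside 21.8% over all genes). It was at 10.25, 10.28 and 10.24 in Cre-positive arrays, against 9.81, 9.73 and 9.77 in Cre-negative arrays (0.49 ± 0.08, limma adjusted p = 0.00373), and the call held neither with the sex term nor without both arrays numbered 2. The other 12 did not pass, and the median of the 13 was -0.12. Many of them were dim: Rnase1 read 3.49, 3.36 and 3.38 in Cre-positive arrays, against 3.62, 3.42 and 3.86 in Cre-negative arrays.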
